A study of Mus musculus with 6 samples.

Results

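The livers of soy-fed and control mice were compared for 10 genes that bind, move or sense zinc: the metallothioneins Mt1 and Mt2, the zinc-sensing transcription factor Mtf1, the ZIP transporters Slc39a14, Slc39a8, Slc39a1, Slc39a4 and Slc39a5, and the ZnT transporters Slc30a1 and Slc30a10. A probe was assigned to a gene through its RefSeq accession, which gave 14 probes for the 10 genes, out of 56605 probes and 22911 genes on the array. The study fed 12-week-old male mice for 4 weeks either a pellet of 100% regular chow (control, 3 mice) or a pellet of 25% soy bean and 75% regular chow (soy, 3 mice). Liver RNA from each mouse was hybridised to one 1-colour Agilent array, and the sources used here name neither the strain nor any genetic change. Values are log2 normalised signals, so a difference of 1 is a 2-fold difference, and each difference is soy minus control. Between 36366 and 38163 of 59305 spots were well above background on the control arrays, against 31308 to 32498 on the soy arrays. The lowest signal so flagged was 6.22 to 6.32 on control arrays and 6.42 to 6.78 on soy arrays, so the flag is not alike between the groups. Control 1, control 2 and soy 1 shared a slide, control 3 and soy 3 shared another, and soy 2 was on a slide of its own.

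Metallothioneins are small cysteine-rich proteins that bind zinc and copper, and the liver makes Mt1 and Mt2 in large amounts. Their genes are switched on by zinc through MTF-1, which binds metal response elements (MREs) in their promoters, and also by glucocorticoids and by the acute-phase response. ZIP (Slc39a) proteins bring zinc and some other metals into the cytoplasm, and ZnT (Slc30a) proteins carry metals out of it, either from the cell or into vesicles.

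Mt2 and Mt1 lie next to each other on chromosome 8 in the RefSeq table of assembly GRCm38.p6, in the order Mt4, Mt3, the non-coding gene Gm39227, Mt2, Mt1. Because these 2 genes carried the largest differences of the group, the 250 bases before their RefSeq starts are printed, both on the plus strand, at chr8:94172368-94172617 for Mt2 and chr8:94178839-94179088 for Mt1. Capitals mark matches to the core of the MRE, searched as TGCACNC or TGCGCNC on both strands, with overlapping matches joined.
Mt2: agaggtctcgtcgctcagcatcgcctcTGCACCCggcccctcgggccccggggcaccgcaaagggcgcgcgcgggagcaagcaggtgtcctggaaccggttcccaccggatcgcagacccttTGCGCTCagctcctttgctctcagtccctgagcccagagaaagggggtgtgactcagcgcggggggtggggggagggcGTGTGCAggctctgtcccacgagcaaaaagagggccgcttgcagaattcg
Mt1: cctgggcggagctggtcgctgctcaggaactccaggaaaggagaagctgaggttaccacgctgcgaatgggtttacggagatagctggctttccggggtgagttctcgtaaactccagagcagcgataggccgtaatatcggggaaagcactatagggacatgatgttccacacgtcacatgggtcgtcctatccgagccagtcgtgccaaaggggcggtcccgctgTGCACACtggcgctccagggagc
The matches began 223, 128 and 50 bases before the start of Mt2 and 23 bases before that of Mt1. Over the whole RefSeq window of 300 bases, which adds the first 50 bases after the start, Mt2 held 4 matches and Mt1 held 3. Of 32851 such windows in the table, 1.31% held at least 3 matches and 0.295% at least 4, whereas 25.7% held at least 1. Mt3 and Mt4, the other genes of the cluster, held 1 match each. Among the transporters, Slc30a4 held 3, as many as Mt1, and Slc30a1, Slc30a10 and Slc30a2 held 2 each, a number reached by 6.14% of windows, and Slc39a1 and Mtf1 held none. The 2 windows of Slc39a8 held 0 and 1, as did those of Slc39a5. Slc39a14 and Slc39a4 had no window, so their promoters were not searched. TATAAA, the core of the TATA box, was in the window of Mt4 but in neither that of Mt1 nor that of Mt2, and in 13.6% of all windows. Whether these starts are the ones used in liver was not tested.

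Of the 14 probes, 2 passed the test, one of Mt1 and the single probe of Slc39a14, and both fell in soy. Passing required a limma p below 0.05 after Benjamini-Hochberg adjustment over all probes, and besides it a soy to control ratio over 1.5 or below 0.66, which 0.35% of all probes met (0.141% lower in soy and 0.208% higher). Of all passing probes, 59.6% were higher in soy, and this share was 90.8% with Agilent's processed signal scaled to the 75th percentile. At 6 of the 14 probes the soy and control arrays did not overlap, 4 lower and 2 higher in soy, and 18% of all probes had this property (10.3% lower and 7.73% higher in soy). The Mt2 probe showed the largest difference of the 14 but did not pass. The tissue was a mixture of cells, so fewer cells of a type and less RNA per cell cannot be told apart.

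Mt1 fell in soy on the probe for its curated transcript (A_66_P111660, NM_013602). Its log2 signal was 17.62, 15.99 and 17.60 in controls 1 to 3, and 12.39, 12.90 and 14.02 in soy 1 to 3. Every soy array was below every control array, and the lowest control, control 2, was still above the highest soy array, soy 3. The means were 17.07 ± 0.94 in control and 13.10 ± 0.83 in soy (SD, n = 3 each). The difference was -3.97 (SE 0.53, 95% interval -5.21 to -2.74), or 15.7-fold lower, with a limma adjusted p of 0.0369. By size of the fall this probe ranked 4 among all 56605, and 0.0618% of probes were at least 4-fold lower. Within the slide shared by control 1, control 2 and soy 1 the difference was -4.42, and within that of control 3 and soy 3 it was -3.59. With the slide as a block it was -4.06 and no longer passed (adjusted p = 0.122). When each array was left out in turn, the probe passed only without control 2 (adjusted p = 0.0398), and otherwise the adjusted p went up to 0.142.

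A second Mt1 probe (A_52_P423810) was annotated to XM_006530752, a predicted transcript. It read 10.94, 9.72 and 7.96 in control and 7.08, 7.55 and 8.53 in soy, and was well above background on 3 control and 2 soy arrays. Here the groups overlapped, since control 3 was below soy 3, and the difference of -1.82 (SE 0.70) did not pass (limma adjusted p = 0.385). It was -1.12 without control 1 and -2.61 without control 3. Within slides it was -3.25 on the first and 0.57 on the slide of control 3 and soy 3, so the 2 Mt1 probes differed in sign in that pair of mice.

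Mt2, which encodes the second major liver metallothionein, was measured by a single probe (A_51_P246317, NM_008630). The signals were 17.83, 15.57 and 17.57 in control and 11.04, 12.24 and 13.72 in soy. The groups did not overlap, and the 6 mice stood in the same order as for the curated Mt1 probe, from soy 1, the lowest, through soy 2, soy 3, control 2 and control 3 to control 1. The means were 16.99 ± 1.24 and 12.34 ± 1.34 (SD, n = 3 each). The difference was -4.65 (SE 0.77, 95% interval -6.44 to -2.86), 25.1-fold, and ranked 2 by size of the fall among all probes. It was -5.36 without control 2, -5.34 without soy 3 and -4.01 without soy 1. With a limma adjusted p of 0.0668 it missed the threshold, the SE being larger than for Mt1. It passed in 3 of 10 other ways of processing the data, over which the adjusted p ran from 0.00823 (with the processed signal) to 0.161 (with the slide as a block), and in none of the 6 leave-one-out fits. In those 3 ways more probes passed over the whole array than the 198 of the main fit. They numbered 13138 of 56605 with the processed signal, 299 with the 75th percentile shift and 497 of the 32376 well above background. Within slides the differences were -5.65 and -3.84. Mt1 and Mt2 are close paralogs, and whether each probe also binds the transcript of the other was not tested, since no probe sequences were used here.

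**Figure D1:**
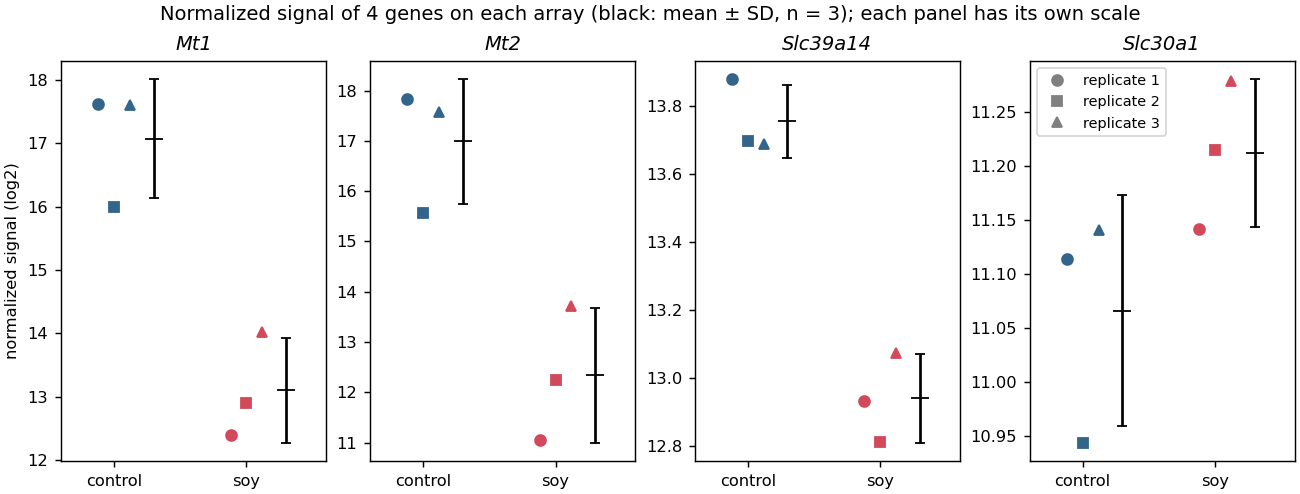
Log2 normalised signal of Mt1, Mt2, Slc39a14 and Slc30a1 (brightest probe of each) on each array, with the scale set for each gene, blue for control and red for soy, the symbol giving the replicate number and black bars the mean ± SD (n = 3). Mt1 (means 17.07 and 13.10), Mt2 (16.99 and 12.34) and Slc39a14 (13.75 and 12.94) were lower in every soy liver than in any control, whereas Slc30a1 differed by 0.15.

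The spread within groups was wide for both genes. Control 2 was 1.63 log2 units below control 1 on the curated Mt1 probe and 2.26 below it on the Mt2 probe. Within soy, the distance from the lowest to the highest mouse was 1.62 for Mt1 and 2.68 for Mt2. The acute-phase genes Saa1, Saa2 and Lcn2, markers of an inflammatory response in liver, had the same order among the soy mice. Saa2 read 13.89, 16.25 and 18.30 in soy 1 to 3, against 16.59, 17.26 and 16.52 in control. Lcn2, which encodes an iron-scavenging lipocalin, read 9.71, 11.29 and 13.44 in soy, against 11.95, 11.40 and 11.33 in control. Saa1, Saa2 and Lcn2 were singled out after their values were seen. Over the brightest probes of all 17 acute-phase genes, 11 had this order among the soy mice, and in 8 of these, but in none of the rest, soy 3 was above all controls. The share of all genes with this order was not computed, so whether these counts are particular to the list is not known. The Mt1 and Mt2 signals of soy 3 were below all controls.

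The remaining metallothioneins showed no passing difference. Mt3, known from brain, read 9.83, 9.47 and 9.75 in control and 9.65, 9.84 and 9.58 in soy, a difference of 0.010 (adjusted p = 0.985). Mt4, known from stratified epithelia, read 7.36, 7.23 and 7.37 in control and 7.61, 7.07 and 7.00 in soy, a difference of -0.098 (adjusted p = 0.867). Mt4 was well above background on 3 control arrays and 1 soy array. The groups overlapped for both genes, and the sign of both differences depended on the scaling: Mt4 was at 0.066 after a shift to the 75th percentile, and Mt3 was at -0.0034 with the processed signal.

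Mtf1, the zinc sensor that activates the metallothionein genes, had 3 probes with differences of both signs, and none passed. The brightest (A_66_P122382) read 12.46, 12.33 and 12.21 in control and 11.88, 11.98 and 12.09 in soy. The groups did not overlap, with a difference of -0.35 (SE 0.11, 95% interval -0.60 to -0.09, limma adjusted p = 0.287). The other Mtf1 probes overlapped between groups, at -0.22 (adjusted p = 0.689) and 0.19 (adjusted p = 0.579). The first of these was at -0.039 without control 1 and -0.40 without control 3.

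Slc39a14 (ZIP14), an importer of zinc, iron and manganese in hepatocytes, fell in soy by a smaller and more uniform amount (A_55_P2013760, NM_001135151). The signals were 13.88, 13.70 and 13.69 in control and 12.93, 12.81 and 13.07 in soy. The highest soy mouse was 0.61 below the lowest control. The means were 13.75 ± 0.11 and 12.94 ± 0.13 (SD, n = 3 each), a difference of -0.81 (SE 0.11, 95% interval -1.08 to -0.55), or 1.76-fold lower, with a limma adjusted p of 0.0405. It was -0.85 and -0.61 within the 2 shared slides. With the slide as a block it was -0.75 and did not pass (adjusted p = 0.184), and it passed in none of the 6 fits that left out an array (adjusted p from 0.0761 to 0.139).

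The other ZIP importers showed no passing difference. Slc39a8 (ZIP8), the close relative of ZIP14, read 11.21, 10.95 and 10.94 in control and 10.70, 11.00 and 11.31 in soy on its brighter probe, a difference of -0.030 (SE 0.17, 95% interval -0.42 to 0.36, adjusted p = 0.964). Its dimmer probe differed by 0.14 (adjusted p = 0.811), and the groups overlapped on both. The dimmer probe was at 0.029 without control 2 and at 0.32 without soy 1. Slc39a1 (ZIP1), a widely expressed importer of the cell surface, read 14.15, 14.12 and 14.22 in control and 13.98, 14.15 and 14.41 in soy. Its difference was 0.019 (SE 0.13, 95% interval -0.28 to 0.32, adjusted p = 0.971), with the soy mice on both sides of the controls.

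Slc39a4 (ZIP4), known as the importer that takes up dietary zinc in the intestine, read 14.95, 14.84 and 14.99 in control and 15.22, 15.00 and 15.30 in soy. All soy arrays were above all controls, with soy 2 above control 3 by a narrow margin. The difference was 0.25 (SE 0.11, 95% interval -0.01 to 0.52), and it did not pass (limma adjusted p = 0.464). Slc39a5 (ZIP5), an importer of the basolateral membrane, was well above background on no array, at 6.43 to 6.67 in control and 6.35 to 6.55 in soy, so no fold change is given.

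Both exporters had positive differences, and neither passed. Slc30a1 (ZnT1), which exports zinc across the plasma membrane and is itself a target of MTF-1, read 11.11, 10.94 and 11.14 in control and 11.14, 11.21 and 11.28 in soy. The soy arrays were all above the controls, yet soy 1 and control 3 differed only in the third decimal. The difference was 0.15 (SE 0.10, 95% interval -0.09 to 0.38, limma adjusted p = 0.641), an interval that leaves out a fall of the size seen for Slc39a14. Without control 2 the Slc30a1 difference was 0.085. Slc30a10 (ZnT10), a manganese exporter, read 8.63, 8.71 and 9.33 in control and 8.88, 9.01 and 10.02 in soy. Its groups overlapped, and the difference of 0.42 (SE 0.32) did not pass (adjusted p = 0.671). It rested on soy 3, since it was 0.055 without that mouse, and it was 0.63 without control 3.

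The other genes of the 3 families, which were listed by family and not by value, were 19 genes with 26 probes, the Mt3 and Mt4 probes included. None of these probes passed by limma, and 1 had an unadjusted p under 0.05, where 11.5% of all probes did. All 26 differed by less than 0.5 on the log2 scale, as did 93.9% of all probes, and 4 did not overlap between groups, where 18% of all probes did not. Of the 9 other ZIP genes, 4 were higher and 5 lower on their brightest probe, with a median of -0.019, and 1 of them, Slc39a12, was well above background on no array. The largest differences were -0.26 for Slc39a2 (adjusted p = 0.514), -0.25 for Slc39a6 (adjusted p = 0.747) and 0.19 for Slc39a13, an importer out of intracellular vesicles (adjusted p = 0.586). Of the 8 other ZnT genes, Slc30a3 and Slc30a8 were well above background on no array and Slc30a2 on no soy array. Slc30a2 nevertheless read 7.24, 6.76 and 6.78 in soy, against 7.02, 7.00 and 6.93 in control. Of the remaining 5, 1 was higher and 4 lower, with a median of -0.11 (-0.070 over all 8). Slc30a5 and Slc30a7, which supply zinc to the secretory pathway, differed by -0.28 (adjusted p = 0.431) and -0.21 (adjusted p = 0.627), and Slc30a4 by -0.11 (adjusted p = 0.801). Single arrays moved several of these values: Slc39a6 was at -0.018 without soy 2, Slc39a13 at 0.0998 without control 1, Slc30a7 at -0.11 without control 2, Slc30a5 at -0.18 without control 1, Slc39a2 at -0.39 without soy 1, and Slc30a4 at 0.023 without soy 2. The median over the 10 named genes, Slc39a5 included, was -0.035, beside -0.0057 over the brightest probes of all genes, and 10 of the 14 probes differed by less than 0.5.

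**Figure D2:**
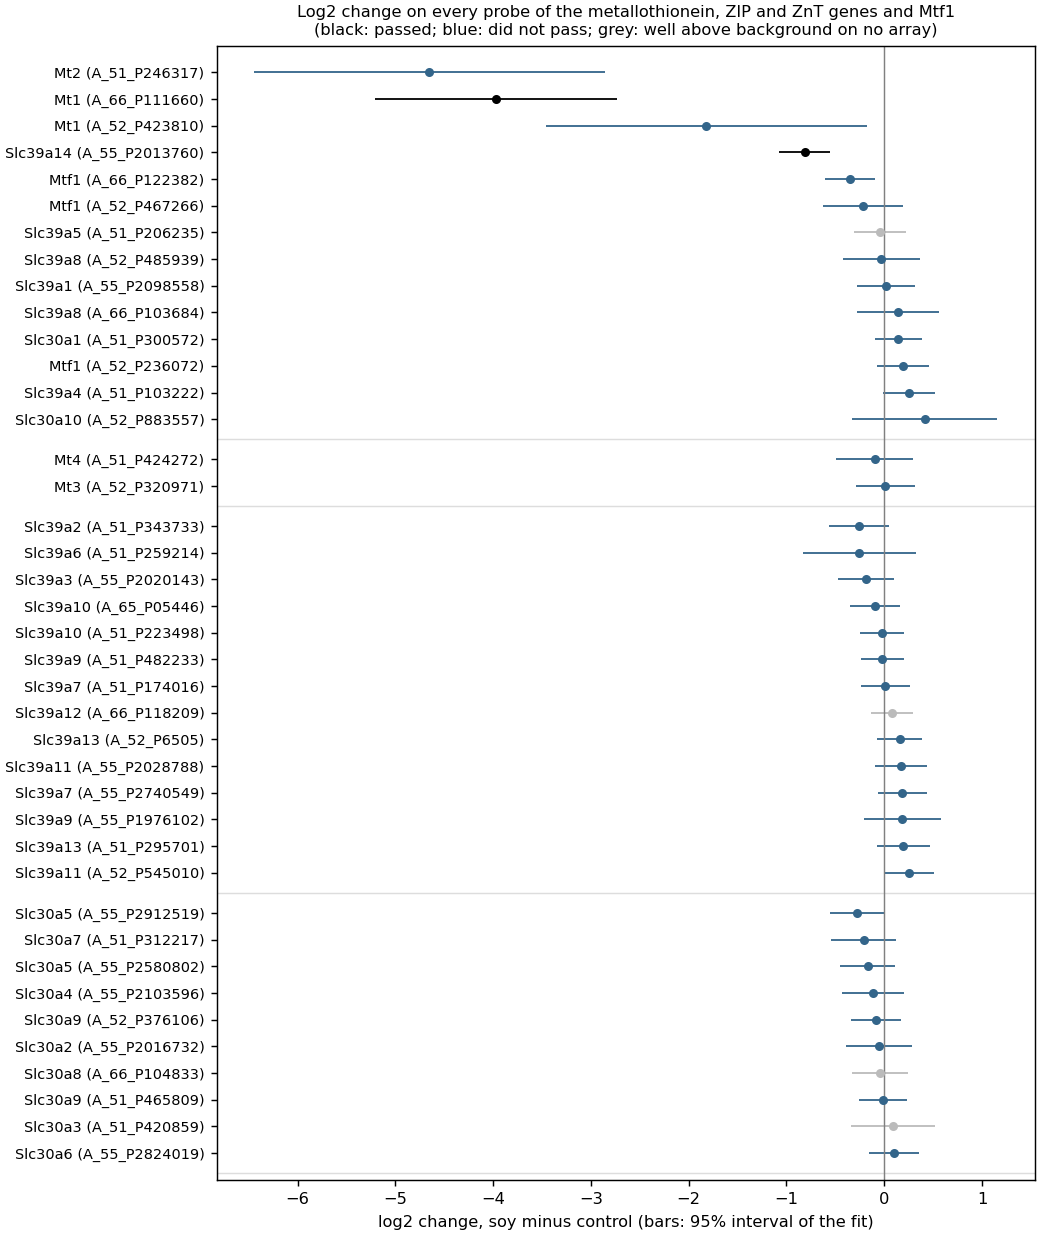
Log2 difference, soy minus control, on every probe of the metallothionein, ZIP and ZnT genes and Mtf1, with the 95% interval of the fit, the 10 named genes in the top block and the other metallothioneins, ZIP and ZnT genes below. The probes of Mt2 (-4.65), Mt1 (-3.97 and -1.82) and Slc39a14 (-0.81) have the largest negative differences of those shown, and the black points, Mt1 and Slc39a14, are those that passed.

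The genes whose pattern over the 6 arrays was most like that of the curated Mt1 probe were sought among 15105 genes, by the root mean square difference of the log2 signals after each was centred on its mean. This likeness uses the control and soy difference itself, so the values are a description. Genes well above background on all control arrays alone were also eligible, and for them (Cebpe and Tiam2 among the 5) the soy part of the pattern is a signal near background, so their rank has no firm value. Mt2 was the closest, at 0.495. Cebpe, a transcription factor of the C/EBP family, followed at 0.752, with 10.48, 10.46 and 11.81 in control and no soy array well above background (at least 19.9-fold lower, limma adjusted p = 0.00775). Tiam2, an exchange factor for Rac, was at 0.830, with 9.86, 10.24 and 9.86 in control, and also not well above background in soy (at least 9.36-fold lower, adjusted p = 0.000646). Each bound sets the control mean against the soy mean of, for each array, the lowest signal that was well above background there or the signal of the probe itself, whichever was higher. Pfkfb3, which makes the activator of phosphofructokinase, was at 0.888, with 12.50, 12.34 and 12.39 in control and 9.73, 9.20 and 9.80 in soy (difference -2.83, adjusted p = 0.00298). Igfbp1, a secreted binding protein of insulin-like growth factors that rises with fasting, was at 0.964, and read 15.14, 14.70 and 14.29 in control and 11.74, 12.17 and 12.73 in soy. Its difference was -2.50 (SE 0.29, adjusted p = 0.0242), with -3.18 and -1.56 within the 2 shared slides. Igfbp1 did not pass with the slide as a block (adjusted p = 0.161) or the replicate number as a block (adjusted p = 0.0854), nor without control 1 (0.0576), control 2 (0.0849), soy 1 (0.0696) or soy 2 (0.108), each an adjusted p. Igfbp1 had the order of Mt1 and Mt2 among the soy mice but not among the controls, where control 3 was the lowest.

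**Figure D3:**
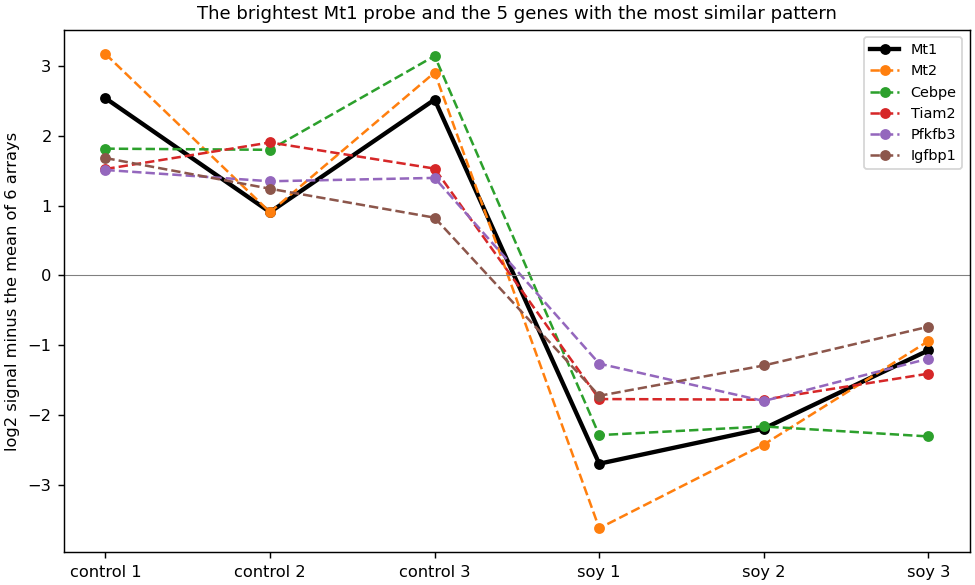
Log2 signal of the curated Mt1 probe (solid black) and of the 5 genes with the most similar pattern (dashed), each minus its mean over the 6 arrays, which stand along the horizontal axis. The Mt2 line dips at control 2 as the Mt1 line does, and among the soy arrays both are lowest at soy 1 and highest at soy 3, whereas Cebpe and Tiam2 are not well above background in soy.

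Other genes known to share inputs with Mt1 and Mt2 were listed by pathway. Copper handling genes, including the copper carrier ceruloplasmin, showed no passing probe: 5 of 10 were higher and 5 lower, with a median of 0.023. On the brightest probes the largest differences were 0.26 for Cp (adjusted p = 0.581), -0.23 for the copper importer Slc31a1 (adjusted p = 0.476) and -0.19 for the copper pump Atp7a (adjusted p = 0.607). Other probes of these genes differed by more: Atp7a was at -0.36 on A_51_P173686 (adjusted p = 0.191), where the groups did not overlap, and Cp at 0.32 (adjusted p = 0.656). The brightest Atp7a probe was at -0.11 without control 1 or without soy 2, and that of Cp was at 0.17 without soy 3 or without control 2. Of 17 acute-phase genes, 12 were lower and 5 higher on their brightest probe, with a median of -0.11, and none passed. This tally depended on single mice. Without soy 1, more of the 17 were higher than lower, as Fga, Hp, Itih4, Lcn2, Saa1 and Saa2 turned positive. The median was then that of Hp, 0.087. Without soy 3, Apcs, Hpx, Orm1 and Orm2 turned negative and Hp turned positive, and the median was that of Fga, -0.42. A second probe of Fga, the fibrinogen alpha chain (A_55_P2123381), had the lowest adjusted p of the list, at -0.93 (adjusted p = 0.0756), with all soy arrays below all controls, while its brightest probe was at -0.31 with overlap. The brightest Fga probe was at 0.044 without soy 1 and at -0.64 without control 1. Saa3 differed by 1.20 (adjusted p = 0.372), Steap4, a metalloreductase, by -0.88 (adjusted p = 0.305) and Saa2 by -0.64 (adjusted p = 0.841), and their groups overlapped. Saa3 was at 0.71 without soy 3, and Saa2 at 0.49 without soy 1 and at -1.72 without soy 3.

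Of 14 genes of the glucocorticoid and fasting response, the receptor gene Nr3c1 among them, 13 were lower in soy on their brightest probe, with a median of -0.77 beside -0.0057 for all genes. In 6 of them the groups did not overlap, all lower in soy, where 10.3% of all probes were lower without overlap. Nr3c1 was at -0.068 on its brightest probe and at 0.44 on its other one, with overlap between the groups on both. The brightest Nr3c1 probe was at 0.036 without control 2, and Cdkn1a was at 0.41 without control 1. The count of 13 thus depended on single arrays. Igfbp1 was the only one of the 14 to pass. Zbtb16, a glucocorticoid-responsive transcription factor, read 13.04, 12.94 and 11.67 in control and 11.38, 10.33 and 10.85 in soy (difference -1.70, adjusted p = 0.153). Fkbp5, a co-chaperone of the glucocorticoid receptor, read 14.06, 13.13 and 13.07 in control and 12.52, 12.03 and 12.18 in soy (difference -1.18, adjusted p = 0.146). The part of these pathways in the Mt1 and Mt2 differences was not tested.

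**Figure D4:**
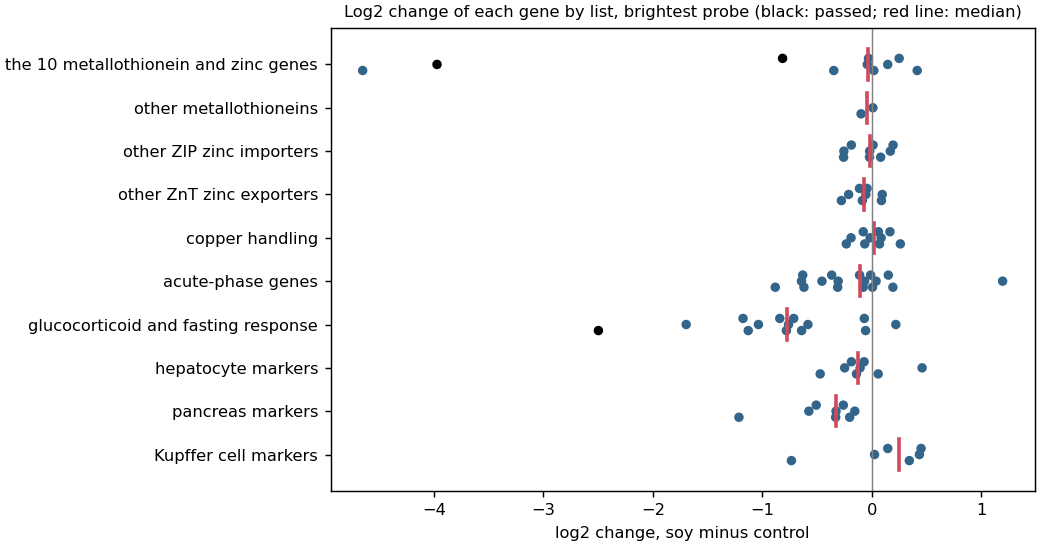
Log2 difference, soy minus control, of the brightest probe of each gene in 10 of the gene lists, with passing probes in black and the median of each list as a red line. The lists of other zinc genes and of copper genes have medians near 0, and the glucocorticoid and fasting genes have a median of -0.77, with Igfbp1 as their passing gene.

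The samples carried the markers of liver. All 8 hepatocyte markers were well above background on every array, with Alb the brightest, and none passed. Their median was -0.12, and the largest differences were -0.47 for Cps1 (adjusted p = 0.178), 0.46 for Apob (adjusted p = 0.380) and -0.25 for Hnf4a (adjusted p = 0.499). Hnf4a was at -0.16 without control 1. The pancreas markers had lower fitted values in soy in all 8 cases, though none passed. Amy2b was well above background on no array, and Cela3b, Cpa1, Pnlip and Prss2 on no soy array. The lowest signal so flagged was higher on soy arrays than on control arrays, so a flag missing in soy alone does not measure a fall. The remaining 3 markers had a median of -0.26 (-0.33 over all 8). The summed linear signal of all 8, those near background included, was 4091, 5133 and 4104 in control and 2974, 3187 and 2904 in soy, so it stood apart between the groups as Mt1, Mt2 and Slc39a14 did. The brightest of them was Ctrb1, which differed by -0.26 (adjusted p = 0.473). Cela2a, a pancreatic elastase, read 10.45, 11.02 and 10.24 in control and 9.23, 9.60 and 9.25 in soy (difference -1.21, adjusted p = 0.0724), and Cela3b was well above background on no soy array (adjusted p = 0.513). The part of these markers in the zinc gene differences was not tested.

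The other cell type lists had no passing member. Of 6 Kupffer cell markers 5 were higher, with a median of 0.24, and the largest differences were -0.73 for Marco (adjusted p = 0.589), 0.45 for Cd5l (adjusted p = 0.538) and 0.44 for Vsig4 (adjusted p = 0.491). Marco rested on control 3, without which it was at -0.20. Without control 1, Cd5l was at 0.20 and Vsig4 at 0.27, while Adgre1 (-0.071) and Clec4f (-0.16) turned negative. The Kupffer cell median then lay between Adgre1 and Timd4 (0.11). Over the markers well above background on some array of both groups, the medians were -0.15 for 5 stellate cell markers, -0.10 for 6 endothelial markers, 0.12 for 3 cholangiocyte markers, 0.099 for 2 adipocyte markers and 0.42 for 5 red cell and neutrophil markers. Over all measured markers of each list they were -0.12, -0.10, 0.12, -0.075 and 0.34, so the sign for adipocytes turned. The first set of medians moved with single arrays. Without soy 1, Krt19, which set the cholangiocyte median, was at -0.013, and that median turned negative. The adipocyte median also did, with Cfd, an adipocyte gene, at -0.21. Alas2 set the red cell and neutrophil median and was at -0.42 without control 2, where the median was that of Hba-a1, 0.13. Without control 1 the stellate median was that of Dcn, -0.067, and the endothelial one lay between Stab2 (-0.036) and Oit3 (-0.010). In these lists the largest differences were -0.23 for Reln, -0.17 for Pdgfrb and -0.15 for Hand2 among stellate cell markers, and -0.67 for Lyve1, 0.30 for Kdr and 0.20 for Clec4g among endothelial markers. Lyve1 rested on control 1, without which it was at -0.037, and without soy 1 Pdgfrb was at 0.012 and without control 1 Reln at -0.081. Clec4g was at 0.11 without soy 2. Among cholangiocyte markers they were -0.16 for Sox9 on its brightest probe and 0.15 for Spp1, with Krt7 well above background on no soy array, and the adipocyte gene Lep differed by -0.21. Spp1 was at 0.020 without soy 3 and 0.027 without control 2, and Sox9 at -0.050 without soy 2. Lep was at -0.12 without control 3 and -0.33 without control 1. A second Sox9 probe (A_55_P2798454) was of the opposite sign, at 0.35 (adjusted p = 0.412), with all soy arrays above all controls. Adipoq and Plin1, which define fat cells, and Epcam and Ngp were well above background on no array. S100a9, a neutrophil protein that binds zinc and calcium, differed by 0.62 (adjusted p = 0.481) and S100a8, its partner, by 0.58 (adjusted p = 0.445), values that were 0.33 and 0.29 without control 1, while Camp differed by -0.54 (adjusted p = 0.325).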

How the data were processed

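Liver RNA of 6 mice (3 control, 3 soy) was measured on 1-colour Agilent arrays, and the labels gave the groups. The authors scanned the arrays and deposited Feature Extraction 11.5.1.1 output, which holds the median intensity of spots and of local background, without correction or scaling between arrays. The processed signal deposited with it is an intensity that this software had background subtracted and detrended. They also deposited log2 values of the same arrays, with array medians of 7.33 to 7.34. These lay within 0.071 of the values computed here and served as an alternative.

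Median intensities were background corrected (normexp, offset 50), quantile normalised and log2 transformed. Control spots and outlier spots were dropped, and replicate spots averaged per probe. Soy was compared with control at each probe in R 4.3.3 with limma 3.58.1 (lmFit and eBayes, two-sided), with Benjamini-Hochberg adjustment over 56605 probes, of which 58.3% had a gene symbol through RefSeq. The script was tested on simulated data. Signal near background limits the precision, as does the number of arrays. Tables and plots were made with Python 3.11.15, pandas 2.3.3 and matplotlib 3.10.9. The p-values measure the spread between these mice. The closing section gives the alternatives that were run.

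The 10 genes and all lists were chosen with earlier results of these data known. Named were all 10 genes, the passing members and the 3 largest differences on the brightest probe of each other list, among genes well above background in all arrays of a group, and the 5 genes most like Mt1. Genes named for their order across the soy mice (Saa1, Lcn2) and markers named as not above background were chosen after their values were seen. So were genes named only for their place at a median or for their value without one array. Promoter windows from RefSeq (GRCm38.p6) were found for 8 of the 10 genes, but not for Slc39a14 and Slc39a4. No array coordinates are given, since the build of the array annotation differs from GRCm38.p6.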

Additional observations from a re-analysis of the deposited data

How the results depend on the processing

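Passing probes numbered 198 over the whole array. Without one array each they numbered 25 to 203. They numbered 13138 with the processed signal, 299 with a shift to the 75th percentile, 497 with probes well above background only, 78 with the replicate number as a block (replicate block) and 25 with the slide as a block. They numbered 194 without background correction, 187 with cyclic loess, 198 with outlier spots kept, 196 with the log2 values of the authors and 290 with trend and robust settings. With the processed signal the median difference of all probes was 0.125, and with the 75th percentile shift 0.134, so differences under these scalings are relative to that shift. The filter on signal above background left fewer probes to test (32376). The cause of the counts was not tested. Of the 14 probes of the 10 genes, 2 passed; 1 did (Slc39a14) with trend and robust settings, 0 with the replicate block, 0 with the slide as a block, and 0 to 1 without one array each. Mt2 passed besides with the processed signal, the 75th percentile shift and the filter on dim probes. Of the 26 other zinc probes, 2 passed with the processed signal (Slc39a12 and Slc39a10), where 13138 of all 56605 probes did, and 0 without any one array. The Slc39a12 probe was well above background on no array, and this Slc39a10 probe (A_65_P05446) on 2 control arrays and no soy array.

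Same-numbered control and soy mice showed no consistent pairing: the correlations of their deviations were 0.116, -0.057 and 0.106. Pairs that shared a slide were all positive: control 1 and soy 1 (0.116), control 2 and soy 1 (0.093), and control 3 and soy 3 (0.106). Pairs on different slides ran from -0.202 (control 3 and soy 1) to 0.105 (control 3 and soy 2). The part of the slide in these deviations was not tested. The replicate block gave an adjusted p of 0.0524 for Mt1, 0.0990 for Slc39a14 and 0.0854 for Igfbp1.

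With the slide as a block Slc39a1 was at -0.0060, the dimmer Slc39a8 probe at -0.0011, Mt4 at 0.018, Mt3 at -0.068, Slc39a6 at 0.033 and Slc30a4 at 0.020. Mt4 was at 0.066 with the 75th percentile shift, and Mt3 at -0.0034 with the processed signal. Without one array each the differences ran from -0.097 to 0.12 for Slc39a1, -0.19 to 0.12 for the brighter Slc39a8 probe, -0.29 to 0.016 for Mt4, -0.095 to 0.084 for Mt3, -0.19 to 0.023 for Slc30a4 and -1.72 to 0.49 for Saa2, which turned sign without soy 1. Slc39a5 was well above background on no array, so its computed values, 0.33 with the processed signal, 0.19 with the 75th percentile shift and -0.085 to 0.035 without one array each, have no readable sign. The fall of Mt1 ran from -4.51 to -3.62 that of Slc39a14 from -0.88 to -0.75 and the Mt2 difference from -5.36 to -4.01.

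Within-slide values, medians over readable markers and the values of listed markers without one array were added after seeing the data. Correction on the mean signal was not run, because the files as given hold no mean signal column. With 3 mice a group, differences as small as those of Slc30a1 and Slc39a4 could not be separated from the spread, and Slc39a5 was too dim to read.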
